A study of Neurospora crassa OR74A with 3 samples.

Results

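In mycelia of the filamentous fungus Neurospora crassa on cellobiose, 246 genes had more mRNA in a strain lacking NCU05853 than in its parent, and more again in a strain that lacked the transporter gene cdt-2 as well. They were chosen by their RNA-seq read counts in the 3 libraries, so their higher levels are the choice itself and are given as a description with no test. Of 9730 genes counted, 7021 had at least 50 reads in the parent, and a member was one of these with at least 1.4 times the level at each of both steps, after scaling for library size. The members make up 3.5% of the 7021. The strains were Δ3βGΔcdt2Δncu05853, Δ3βGΔncu05853 and the parent Δ3βG, and all lack 3 β-glucosidase genes. Δ3βGΔncu05853 lacks in addition NCU05853, whose product is the putative cellodextrin transporter-like protein CLP1, and Δ3βGΔcdt2Δncu05853 lacks both NCU05853 and cdt-2 (NCU08114). Each culture spent 16 h in sucrose and then 4 h in 2% cellobiose, and each strain gave 1 library. The labels describe no replicate cultures and do not say whether a strain was 1 isolate. The level in Δ3βGΔncu05853 over that in Δ3βG is called the first step, and the level in Δ3βGΔcdt2Δncu05853 over that in Δ3βGΔncu05853 the second step.

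Cellobiose is a disaccharide of glucose released from cellulose. β-Glucosidases split it, and cellodextrin transporters such as cdt-1 and cdt-2 carry it into the cell. In strains without the main β-glucosidases, cellobiose is known to induce the genes of cellulose breakdown. Glucose made from it enters glycolysis, which ends in pyruvate, and fermentation turns pyruvate into ethanol.

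Reads assigned to genes numbered 9808610 in Δ3βGΔcdt2Δncu05853, 9465639 in Δ3βGΔncu05853 and 8586155 in Δ3βG. NCU05853 had 0 reads in Δ3βGΔcdt2Δncu05853 (a count of 0 allows up to 3), 2 in Δ3βGΔncu05853 and 4190 in Δ3βG, and cdt-2 had 9, 2842 and 1907 in the same order of strains. The 3 deleted β-glucosidase genes had between 0 and 47 reads. The share of reads that lay in no gene was 5.16% in Δ3βGΔcdt2Δncu05853, 8.41% in Δ3βGΔncu05853 and 9.64% in Δ3βG, so it was lower at each step at which the members were higher. Its part in the members' ratios was not tested. The labelled tissue is mycelia, yet all 8 markers of conidia and aerial hyphae had reads in every library. None was a member, a count near the 3.5% of members over all 7021 genes. Together the 8 markers took 0.440% of gene reads in Δ3βGΔcdt2Δncu05853, 20.3% in Δ3βGΔncu05853 and 19.0% in Δ3βG. Of this the hydrophobin gene eas alone took 0.305%, 20.02% and 18.7%. Without eas they took 0.135%, 0.262% and 0.372%. The markers did not move together. In the first step 4 of the 8 were at least 1.4-fold lower, against 425 of all 7021 genes, and none was at least 1.4-fold higher. In the second step 5 of the 8 were at least 1.4-fold lower, against 2057 of the 7021. The other 3, con-8, con-10 and ccg-14, were at least 1.4-fold higher in the second step, against 1902 of the 7021. The part of these 8 markers in the members' ratios was not tested. In such bulk RNA, a smaller share of cells of a type and less RNA per cell cannot be told apart.

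Most members differed little in the first step and more in the second. The median first step of the 246 was 1.53-fold, with quartiles at 1.45-fold and 1.70-fold, and 229 were under 2-fold. In the second step the median was 2.69-fold, with quartiles at 1.99-fold and 4.75-fold, and 182 were at least 2-fold higher. The second step was the larger in 235 members and the first in 11, but this split depended on the scaling. The first step was the larger in 63 members scaled on all reads in the file, in 69 on gene reads alone and in 118 on gene reads without eas. On the log2 scale, a median of 31.5% of the whole rise over Δ3βG was already present in Δ3βGΔncu05853, with a range of 5.56% to 63.9%. Over all 7021 genes, 5.11% were at least 1.4-fold higher in the first step and 27.1% in the second. At 2-fold the shares were 0.285% and 14.6%, against 17 and 182 of the members, which the rule itself favours. Across members, the log2 ratios of both steps had a Pearson correlation of 0.25 and a Spearman correlation of 0.31 (246 genes). Both ratios contain the Δ3βGΔncu05853 library, and each was chosen past the same fold, so the coefficients are a description.

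**Figure D1:**
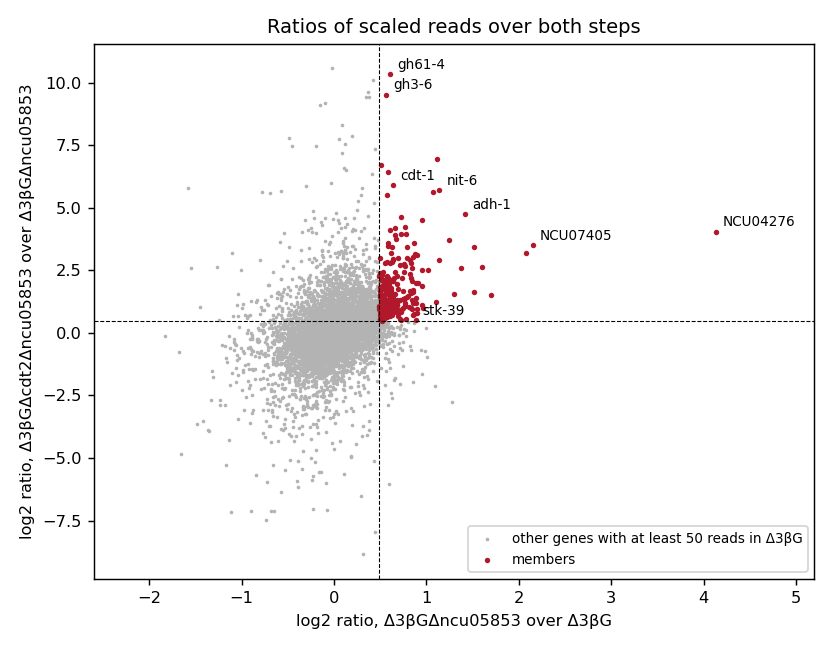
Each point is a gene with at least 50 reads in Δ3βG, with the log2 ratio of scaled reads of Δ3βGΔncu05853 over Δ3βG on the x axis and of Δ3βGΔcdt2Δncu05853 over Δ3βGΔncu05853 on the y axis. Dashed lines mark 1.4-fold, the 246 members lie above and right of both, and 4 genes with 0 reads in Δ3βGΔcdt2Δncu05853 are not drawn.

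The level in Δ3βGΔcdt2Δncu05853 over that in Δ3βG ranged from 2.01-fold to 1989-fold, with a median of 4.26-fold. It was under 4-fold in 113 members, from 4-fold to 10-fold in 80, and from 10-fold to 100-fold in 45. The remaining 8 were at least 100-fold higher. At least 10-fold was reached by 53 members, and by 1.99% of all 7021 genes. Together the members took 12.98% of gene reads in Δ3βGΔcdt2Δncu05853, 3.06% in Δ3βGΔncu05853 and 1.84% in Δ3βG. The 10 members with most reads in Δ3βGΔcdt2Δncu05853 held 41.1% of the members' reads there, 23.0% in Δ3βGΔncu05853 and 20.8% in Δ3βG. Per exon length, the median member stood at 52.6 RPKM (reads per kilobase of exon, scaled to all reads in the file), 18.5 RPKM and 10.9 RPKM in the same order. The other 6775 genes had medians of 14.1, 18.5 and 18.4 RPKM. By these medians, members were the lower set in Δ3βG, level with the rest in Δ3βGΔncu05853 and the higher set in Δ3βGΔcdt2Δncu05853. The rule chose them by the same counts as rising from Δ3βG, so this order is a description that the choice favours.

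**Figure D2:**
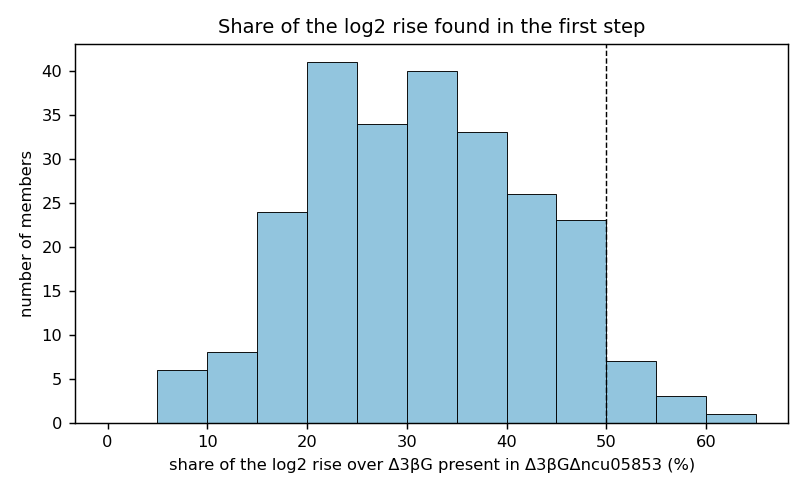
The x axis gives, for each member, the share in percent of the log2 rise over Δ3βG that was present in Δ3βGΔncu05853, and bars count members in bins of 5 percentage points. The dashed line at 50% divides the 235 members with the larger second step, to its left, from the 11 with the larger first step. Scaled on gene reads without eas, 118 members would lie to its right.

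Counting error limited how firmly single members are placed. The exact 95% interval of the ratio lay above 1 in both steps for all 246 members. The rule had asked for a minimum of reads and at least 1.4-fold by the same counts. That all intervals lay above 1 was thus largely set by the choice and is no separate check. The interval lay above 1.4 in both steps for 81 members, in the first step for 84 and in the second for 228. These intervals cover counting error only, with each read taken as independent, and no spread between cultures could be measured. Nearest inside the first threshold were NCU08888 at 1.4003-fold, the glycogen synthase gene gsy-1 (NCU06687) at 1.401-fold, nuo18.4 (NCU00484), NCU05518 and NCU11411. Nearest outside it were NCU04724 at 1.399-fold, NCU05429, NCU09045, NCU01704 and NCU08856. At the second threshold the nearest inside were aln-1 (NCU02296) at 1.4002-fold, stk-39 (NCU06230), NCU00129, NCU00559 and NCU09712, and the nearest outside were NCU08436 at 1.394-fold, NCU10777, NCU11030, NCU08199 and NCU02372.

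The scaling mattered for the second step more than for the first. Scaled on gene reads alone, on all reads in the file, and on gene reads without eas, the median of all genes in the second step moved by -0.39, -0.30 and -0.71 on the log2 scale. On the last of these scales 226 of the 246 members stayed above 1 in the second step and 152 were members still. The median of all genes in the first step moved by at most 0.04 under every scaling tried.

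Of the lists of genes by role, which cover only genes with a symbol, that of glycolysis and fermentation held the most members. Of its 10 genes, 7 were members, where 3.5% of all 7021 were, and all 10 were above 1 in both steps under every scaling tried. The list had a median log2 ratio of 0.62 in the first step and 1.78 in the second, beside -0.02 and -0.06 for all 7021 genes. It took 1.45% of gene reads in Δ3βGΔcdt2Δncu05853, 0.369% in Δ3βGΔncu05853 and 0.239% in Δ3βG. Scaled on gene reads without eas, 6 of the 10 were members.

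Upstream in the pathway, gpi-1 (NCU07281), glucose phosphate isomerase, had 4056 reads in Δ3βGΔcdt2Δncu05853, 2699 in Δ3βGΔncu05853 and 1579 in Δ3βG. Its first step was 1.56-fold (95% interval 1.46 to 1.66) and its second 1.90-fold (1.81 to 2.00), the smallest second step of the 7. The aldolase gene fba (NCU07807) had 10475, 4298 and 2598 reads in the same order, with steps of 1.51-fold (1.44 to 1.58) and 3.09-fold (2.98 to 3.20). The enzymes after aldolase had larger second steps. Glyceraldehyde phosphate dehydrogenase, gpd-1 (NCU01528), had 46207, 12734 and 7401 reads, with steps of 1.57-fold (1.52 to 1.61) and 4.60-fold (4.51 to 4.69). Phosphoglycerate kinase, pgk (NCU07914), had 8024, 2097 and 1194 reads, with steps of 1.6-fold (1.49 to 1.72) and 4.85-fold (4.62 to 5.09). Enolase, emp-7 (NCU10042), had 16131, 5552 and 3352 reads, with steps of 1.51-fold (1.45 to 1.58) and 3.68-fold (3.57 to 3.8). The first steps of these 5 genes lay between 1.51-fold and 1.6-fold, while their second steps differed more. As members they were chosen past 1.4-fold, and the first-step quartiles of all 246 members were 1.45-fold and 1.70-fold.

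The end of the pathway and fermentation varied most. Pyruvate kinase, ace-8 (NCU06075), had 4777 reads in Δ3βGΔcdt2Δncu05853, 1881 in Δ3βGΔncu05853 and 970 in Δ3βG, and its first step of 1.77-fold (1.64 to 1.91) was followed by one of 3.22-fold (3.05 to 3.40). Alcohol dehydrogenase, adh-1 (NCU01754), the last enzyme of ethanol fermentation, had 44753, 2130 and 728 reads. Its steps of 2.67-fold (2.45 to 2.91) and 26.6-fold (25.5 to 27.8) were the largest among the 10 genes of the list. The pyruvate decarboxylase gene cfp (NCU02193), which acts just before adh-1, was no member, with 4010, 601 and 511 reads. Its first step of 1.07-fold had an interval that included 1 (0.951 to 1.21), and its second was 8.45-fold (7.76 to 9.23). Hexokinase, emp-1 (NCU02542), and phosphofructokinase, emp-3 (NCU00629), also fell short in the first step, at 1.24-fold (1.16 to 1.33) and 1.29-fold (1.17 to 1.43), and were 1.74-fold and 1.69-fold higher in the second. A further member, emp-6 (NCU02252), was not in the list though its symbol names the same pathway. It had 2410, 471 and 261 reads, with steps of 1.65-fold (1.41 to 1.92) and 6.48-fold (5.87 to 7.17).

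**Figure D3:**
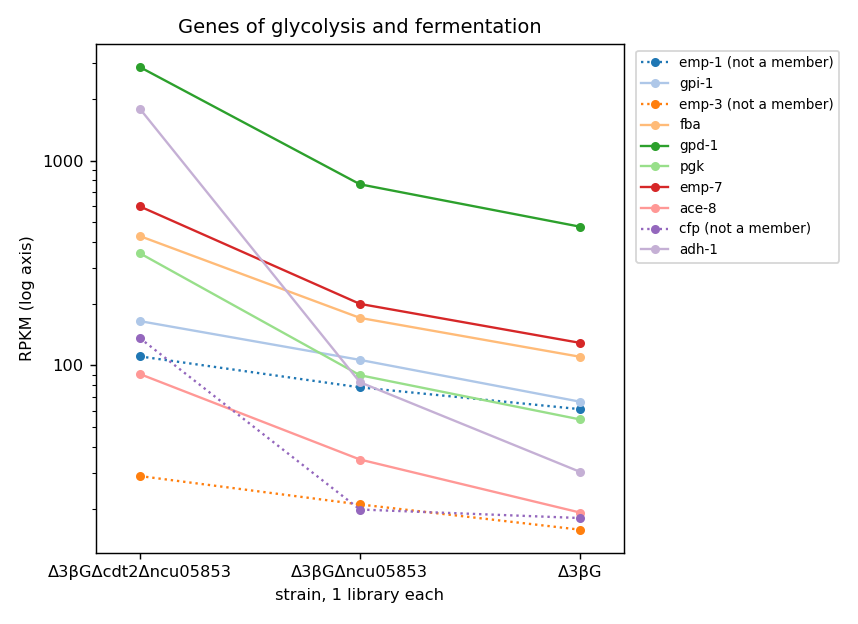
Lines join the RPKM values (log axis) of 10 genes of glycolysis and fermentation in Δ3βGΔcdt2Δncu05853, Δ3βGΔncu05853 and Δ3βG, 1 library each. RPKM is scaled to all reads in the file, so its ratios between strains differ from the steps in the text. Solid lines are the 7 members and dotted lines the 3 genes that are not, and adh-1 has the steepest line, at 1790.4, 82.8 and 30.2 RPKM.

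The opposite pathway held no member. Of 5 genes for glucose synthesis or the glyoxylate cycle, 4 were below 1 in both steps, as were 34.9% of all 7021 genes, and a count of 0 among 5 is near the 3.5% of members over all genes. The exception was acu-5 (NCU06836), acetyl-CoA synthetase, with 2253 reads in Δ3βGΔcdt2Δncu05853, 816 in Δ3βGΔncu05853 and 740 in Δ3βG, and a second step of 3.5-fold (3.23 to 3.8). Phosphoenolpyruvate carboxykinase, acu-6 (NCU09873), which runs against pyruvate kinase, had 352 reads in Δ3βGΔcdt2Δncu05853, 5502 in Δ3βGΔncu05853 and 13996 in Δ3βG.

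The genes gsy-1 and gnn, both of glycogen synthesis, were members; they were picked by their symbols from the members, with no list of glycogen genes to count against. Glycogen synthase, gsy-1, had 7559 reads in Δ3βGΔcdt2Δncu05853, 1976 in Δ3βGΔncu05853 and 1286 in Δ3βG, and its second step was 4.85-fold (4.61 to 5.10). Glycogenin, gnn (NCU06698), the primer of glycogen chains, had 2955, 1490 and 958 reads, with steps of 1.42-fold (1.31 to 1.54) and 2.51-fold (2.36 to 2.68). Both stood just above the first threshold.

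In the 6 lists of sugar uptake and wall breakdown, 5 of 21 genes with enough reads were members (23.8%, against 3.5% of all 7021), and 19 of the 21 passed the fold in the second step (90.5%, against 27.1%). The cellodextrin transporter gene cdt-1 (NCU00801) had 70507 reads in Δ3βGΔcdt2Δncu05853, 1501 in Δ3βGΔncu05853 and 882 in Δ3βG. Its first step was 1.55-fold (1.43 to 1.69) and its second 59.5-fold (56.6 to 62.7). The monooxygenase gene gh61-4 (NCU01050), whose family cleaves cellulose by oxidation, had 94684, 92 and 55 reads and the highest level of all members, 12315 RPKM in Δ3βGΔcdt2Δncu05853. Its first step rested on few reads, 1.53-fold (1.08 to 2.17), and its second was 1304-fold (1063 to 1618). A β-glucosidase gene outside the deleted 3, gh3-6 (NCU07487), had 47034, 81 and 50 reads, so that it stood on the read minimum. Its steps were 1.48-fold (1.03 to 2.15) and 736-fold (592 to 927). Both genes thus had under 100 reads in Δ3βGΔncu05853 and in Δ3βG and far more in Δ3βGΔcdt2Δncu05853.

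Of 50 genes with glycoside hydrolase symbols and enough reads, 5 were members, against 3.5% of all 7021 genes. At least 1.4-fold lower were 7 of the 50 in the first step, against 425 of all 7021 genes, and 7 in the second, against 2057. At least 1.4-fold higher were 5 of the 50 in the first step, against 359 of the 7021, and 32 in the second, against 1902. Smaller and more even steps were found in 3 further members with such symbols. The pectin-degrading gh28-2 (NCU06961) had 1619 reads in Δ3βGΔcdt2Δncu05853, 381 in Δ3βGΔncu05853 and 206 in Δ3βG, with steps of 1.69-fold (1.42 to 2.01) and 5.38-fold (4.81 to 6.04). The family 2 gene gh2-3 (NCU00810) had 2943, 805 and 441 reads, with steps of 1.66-fold (1.48 to 1.87) and 4.63-fold (4.28 to 5.01). The β-glucosidase gene gh3-5 (NCU05577) had 1553, 661 and 423 reads, with steps of 1.42-fold (1.26 to 1.61) and 2.98-fold (2.72 to 3.27). Of the cellulase list, 5 of 9 genes had the minimum of reads. All 5 were at least 1.4-fold higher in the second step, against 27.1% of all 7021 genes. None was a member, a count near the 3.5% over all genes. The nearest of these 5 to the first threshold was the cellobiohydrolase gene cbh-1 (NCU07340). It had a first step of 1.34-fold (1.20 to 1.51) and 637941, 722 and 490 reads. Of 12 genes for lytic polysaccharide monooxygenases and cellobiose dehydrogenase, 7 had the minimum of reads. All 7 passed the fold in the second step, but gh61-4 alone in the first, against 27.1% and 5.11% of all 7021 genes. Of 7 regulators of cellulase and carbon control, 6 had the minimum of reads and none was a member, a count near the 3.5% over all genes. The activator genes clr-1, xlr-1 and vib-1 had first steps of 1.10-fold (0.993 to 1.23), 1.05-fold (0.915 to 1.20) and 1.15-fold (0.994 to 1.34), and second steps of 7.79-fold, 18.4-fold and 17.7-fold. The remaining regulators with enough reads, cre-1, rca-1 and col-26, had first steps of 0.90-fold, 0.81-fold and 0.81-fold. Their second steps were 0.53-fold, 0.105-fold and 2.43-fold.

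**Figure D4:**
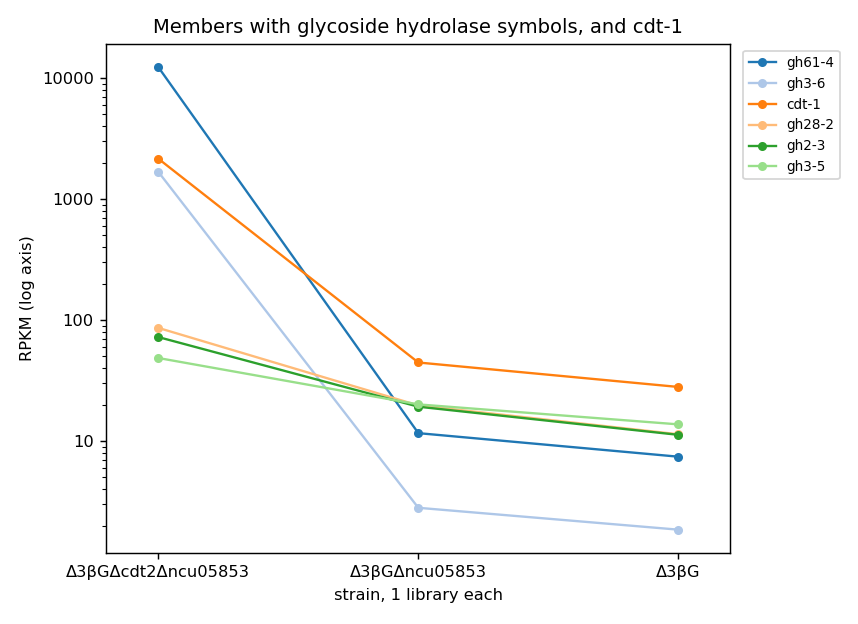
Lines join the RPKM values (log axis) of the 5 members with glycoside hydrolase symbols and of cdt-1 in Δ3βGΔcdt2Δncu05853, Δ3βGΔncu05853 and Δ3βG, 1 library each. RPKM is scaled to all reads in the file, so its ratios between strains differ from the steps in the text. The lines of gh61-4, gh3-6 and cdt-1 are steep between Δ3βGΔcdt2Δncu05853 and Δ3βGΔncu05853, while those of gh28-2, gh2-3 and gh3-5 slope more evenly.

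Some members have symbols of nitrogen, purine or amino acid metabolism; they were picked from the members, with no list to count against. The nitrite reductase gene nit-6 (NCU04720) had 6722 reads in Δ3βGΔcdt2Δncu05853, 164 in Δ3βGΔncu05853 and 68 in Δ3βG. With steps of 2.2-fold (1.65 to 2.96) and 51.9-fold (44.5 to 61.0), it was 1 of the 8 members at least 100-fold higher over both. Purine breakdown was represented by alc-1 (NCU01816), allantoicase, with 1143, 566 and 305 reads, and by aln-1, allantoinase, with 221, 200 and 127. The methionine synthase gene met-8 (NCU06512) had 9259, 5423 and 3090 reads, with steps of 1.6-fold (1.53 to 1.67) and 2.16-fold (2.09 to 2.24). For trp-4 (NCU04411), of tryptophan synthesis, the reads were 210, 154 and 93. The second steps of these 5 genes ran from 1.4-fold for aln-1 to 51.9-fold for nit-6.

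Redox and mitochondrial genes among the members had moderate steps. The genes sod-1, cys-9 and ndk-1 were picked by their symbols from the members, with no list to count against. The superoxide dismutase gene sod-1 (NCU02133) had 5030 reads in Δ3βGΔcdt2Δncu05853, 2155 in Δ3βGΔncu05853 and 1258 in Δ3βG, with steps of 1.56-fold (1.46 to 1.68) and 2.96-fold (2.81 to 3.11). The thioredoxin reductase gene cys-9 (NCU08352) had 309, 252 and 156 reads, with a second step of 1.55-fold (1.31 to 1.84). On gene reads without eas the second step of cys-9 turned below 1, at -0.075 on the log2 scale. Of 29 genes named as complex I subunits, 1 was a member, nuo18.4, with 1435, 936 and 608 reads, a share near the 3.5% over all genes. In the list, 27 genes were above 1 in the first step and 29 in the second, against 47.1% of all 7021 genes in each step. Its median log2 ratios were 0.21 and 0.77. Scaled on gene reads without eas, 16 of the 29 were above 1 in the second step and the median was 0.06, beside -0.77 for all genes. Of 17 genes with symbols of the tricarboxylic acid cycle, 1 was a member, tca-2 (NCU02482), with 316, 227 and 128 reads, again near the 3.5% over all genes. The list's median log2 ratios were 0.09 and 0.34, and the second was -0.37 on gene reads without eas. Nucleoside diphosphate kinase, ndk-1 (NCU04202), had 6605, 2655 and 1447 reads, with steps of 1.67-fold (1.57 to 1.78) and 3.15-fold (3.01 to 3.30). The complex I and tricarboxylic acid cycle lists were drawn up by symbol after the data had been seen.

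A clock-controlled gene, a cell fusion gene and a kinase gene were among the members with many reads. The clock-controlled gene ccg-16 (NCU05495) had 35924 reads in Δ3βGΔcdt2Δncu05853, 7895 in Δ3βGΔncu05853 and 3709 in Δ3βG, or 4891, 1045 and 524 RPKM. Its steps were 1.94-fold (1.87 to 2.02) and 5.77-fold (5.63 to 5.91). The cell fusion gene ham-8 (NCU02811) had 13326, 3814 and 2314 reads, with steps of 1.5-fold (1.43 to 1.58) and 4.43-fold (4.27 to 4.59). Of 44 genes with serine/threonine kinase symbols and enough reads, 1 was a member, near the 3.5% over all genes. The median log2 ratios of the 44 were -0.06 and -0.43. The member, stk-39, had 8492, 7622 and 3772 reads. Its first step of 1.84-fold (1.77 to 1.92) exceeded its second of 1.41-fold (1.37 to 1.46), and 63.9% of its log2 rise lay in the first step, the highest share of all members. On gene reads without eas its second step turned below 1, at -0.21 on the log2 scale, as did that of aln-1 at -0.23. Further members with symbols were tah-1 (NCU00289), mig-9 (NCU09141), mig-10 (NCU04791), thr-4 (NCU04277), bio-1 (NCU03979), rrp3 (NCU08435), ncw-2 (NCU01752) and cmc (NCU04071). Their whole rise lay between 2.68-fold for ncw-2 and 10.6-fold for mig-10.

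Genes without a symbol made up 209 of the 246 members and held the largest first steps. RefSeq gives a symbol to 15.0% of the members and to 14.5% of the other 6775 genes. The member with the largest first step was NCU04276, with 51558 reads in Δ3βGΔcdt2Δncu05853, 3964 in Δ3βGΔncu05853 and 206 in Δ3βG. Its steps were 17.5-fold (15.2 to 20.3) and 16.5-fold (16.0 to 17.0), nearly equal, and its level was 3670, 274 and 15.2 RPKM. NCU07405 had 18190, 2027 and 416 reads, with steps of 4.44-fold (4.00 to 4.95) and 11.4-fold (10.9 to 11.9). NCU05338 had 8028, 1109 and 239 reads, with steps of 4.23-fold (3.68 to 4.89) and 9.17-fold (8.61 to 9.78). These were the 3 members at least 4-fold higher in the first step. NCU01546, with 1551, 694 and 195 reads, had a first step of 3.24-fold (2.76 to 3.82) that exceeded its second of 2.83-fold (2.59 to 3.10). NCU04502 was more abundant, with 39503, 8126 and 2442 reads and steps of 3.03-fold (2.90 to 3.18) and 6.16-fold (6.01 to 6.31). The first steps of NCU07853, NCU08044, NCU01487 and NCU01428 were between 2.47-fold and 2.85-fold, and adh-1 belonged to the same range.

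**Figure D5:**
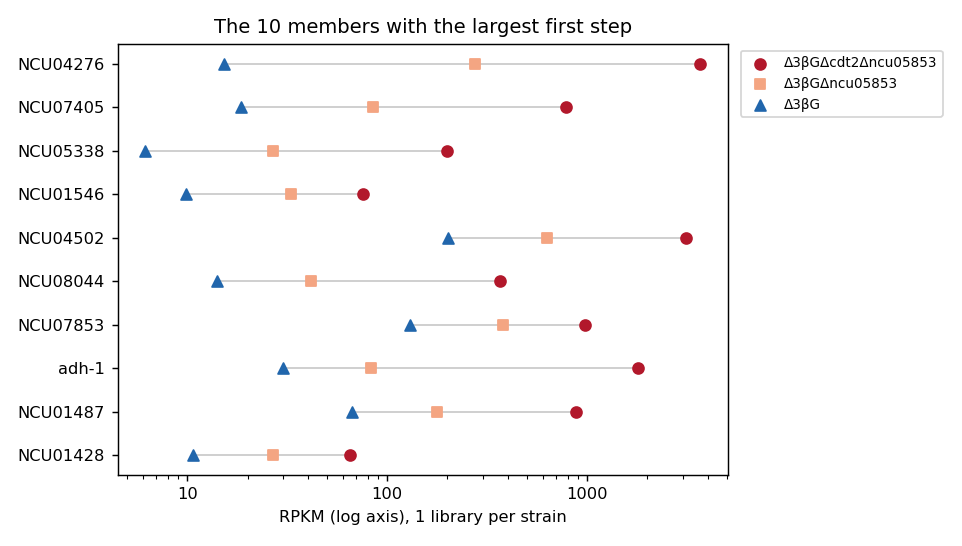
Points give the RPKM values (log axis) of the 10 members with the largest first step, in rows ordered from the largest at the top, with 1 library per strain. RPKM is scaled to all reads in the file, while the steps that order the rows use size factors. In every row the Δ3βGΔncu05853 square lies between the Δ3βGΔcdt2Δncu05853 circle on the right and the Δ3βG triangle on the left. The square lies near the middle for NCU04276, NCU07853 and NCU01428.

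Other genes without a symbol had the largest second steps after gh61-4 and gh3-6. NCU16673 had 16096 reads in Δ3βGΔcdt2Δncu05853, 164 in Δ3βGΔncu05853 and 69 in Δ3βG, with a first step of 2.17-fold (1.63 to 2.91) and a second of 124-fold (107 to 146). NCU05955 had 24761, 296 and 190 reads, with a first step of 1.42-fold (1.18 to 1.71) and a second of 106.0-fold (94.5 to 119). NCU08746 had 6058, 89 and 54 reads, with a first step of 1.5-fold (1.06 to 2.15) and a second of 86.3-fold (69.97 to 108). All 3 had thus far more reads in Δ3βGΔcdt2Δncu05853 than in either other strain. The second steps of NCU05574 and NCU09689 were 49.9-fold and 45.2-fold. Of the abundant members without a symbol, NCU06110 had 58251, 14339 and 7416 reads, NCU08330 had 33614, 10056 and 5127, and NCU04314 had 35472, 15613 and 10040. Their second steps were smaller, between 2.88-fold and 5.15-fold.

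Beyond the 3 described above (stk-39, NCU04276 and NCU01546) and aln-1, the first step exceeded the second in NCU00129, NCU05693, NCU02963, NCU03342, NCU04654, NCU02565 and NCU08350. For 10 of these 11 genes the intervals of both steps overlapped, and stk-39 was the exception.

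By position, some members lay next to each other. In the gene order of RefSeq assembly NC12, 30 members (12.2%) had a member as the gene before or after them, in 16 pairs. The same held for 304 (4.49%) of the other 6774 genes with at least 50 reads in Δ3βG, and members made up 2.53% of the 9729 genes in the order. No test was made of this difference. Over both steps these 30 were 2.77-fold to 289-fold higher, with a median of 4.57-fold, beside 4.26-fold for all 246. NCU04276, with the largest first step, lay next to thr-4, which had 401 reads in Δ3βGΔcdt2Δncu05853, 190 in Δ3βGΔncu05853 and 100 in Δ3βG. The gene sod-1 lay next to NCU02134, with 4686, 1357 and 869 reads, and alc-1 next to NCU01815, with 2106, 1227 and 773. Rows of 3 members were formed by gh2-3, NCU00809 and NCU00808, and by NCU04070, cmc and NCU04072. The other pairs were NCU02888 with NCU02887, NCU02771 with NCU02770, NCU06416 with NCU06417, NCU08224 with NCU08225, NCU05311 with NCU05309, NCU04655 with NCU04654, NCU03633 with NCU03634, NCU04314 with NCU04315, and NCU02239 with NCU02238. The annotated spans of NCU02888 and NCU02887 overlap, and since how strand was used in counting is not known here, their reads cannot be told apart. Of the 50 genes within 5 genes of the deleted loci, 4 were members (8.0%, or 11.4% of the 35 with at least 50 reads in Δ3βG, against 3.5% of all 7021), a small count that was not tested. They were NCU05850 near NCU05853, NCU00129 near gh1-1, and NCU08752 and NCU11292 near gh3-3. None lay near cdt-2 or gh3-4.

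Exons of the members were shorter, with a median of 1925 bases, against 2292 bases in the other 6775 genes. Over both steps, the median was 4.69-fold for the 37 members with a symbol and 4.11-fold for the 209 without.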

How the data were processed

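Read counts and RPKM values per gene came from 1 RNA-seq library per strain. The deposited counts are whole numbers of reads, and the submitters' processing notes name TopHat and HTSeq. The sources used here give no version, genome build, annotation or strand setting. RPKM values, also deposited by the authors, use the file's total reads, and recomputing them from the counts and deposited exon lengths gave differences of at most 1.93e-08 of the value. RPKM served to show levels, between genes and across strains, while the steps and the choice of members used the size factors below. Across strains RPKM follows the scale of all reads in the file. On that scale the median second step of all genes moved by -0.30 on the log2 scale.

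Reads naming no gene (8.53% in Δ3βGΔcdt2Δncu05853, 14.2% in Δ3βGΔncu05853 and 16.8% in Δ3βG) were left out. Counts were divided by median-of-ratios size factors (0.882 for Δ3βGΔcdt2Δncu05853, 1.12 for Δ3βGΔncu05853, 1.02 for Δ3βG) over genes with reads in all 3 libraries. Ratios carry no prior, and their exact 95% intervals (Clopper-Pearson, scipy 1.17.1) condition on the sum of both counts. The intervals take each read as independent, which PCR copies are not, so they may be too narrow even for counting error. They cover no other error. With 1 library per strain no test was possible. TMM factors (edgeR 4.0.16, R 4.3.3) and other scalings and thresholds were tried as alternatives. Scaling and ratios were checked on simulated counts. That check tests the calculation only and cannot show which scaling is right for these 3 libraries. The choice of scaling moved the median second step of all genes by up to -0.71 on the log2 scale, on gene reads without eas.

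The members and lists were chosen with earlier results of these data known. Lists keep only genes with a symbol in RefSeq NC12, which matched 9729 of 9730 identifiers and gave 1118 a symbol. Named are members with a symbol, the 10 highest by RPKM in Δ3βGΔcdt2Δncu05853 or by either step, neighbours of members, and the 5 genes nearest each threshold on either side. Promoter and protein sequences were not analysed here.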

Additional observations from a re-analysis of the deposited data

How the results depend on the processing

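No paired analysis was possible because each strain had 1 library, and for the same reason no library could be left out. The 246 members became 437 with a minimum of 1 read in Δ3βG and 140 with 200 reads, 400 at 1.3-fold, 145 at 1.5-fold and 17 at 2-fold per step, and 81 when the interval of each step had to lie above 1.4. Under the 5 other scalings there were 165 to 255 members, of which 152 to 245 were among the 246. The 359 genes past the first step became 827, 556 and 189 with minima of 1, 10 and 200 reads, 614, 204 and 20 at 1.3-fold, 1.5-fold and 2-fold, and 109 by the interval. The 1902 past the second step became 1189 on gene reads, 820 on gene reads without eas, 1185 with 200 reads and 1028 at 2-fold. The members' median log2 ratio in the first step, 0.61, was 0.62 with TMM, 0.63 without eas, 0.65 on all reads and 0.60 with a prior of 5 reads. That of the second step, 1.43, was 1.42 with TMM, 1.04 on gene reads, 0.72 without eas, 1.13 on all reads, 1.45 with size factors from genes of at least 50 reads and 1.401 with the prior. On gene reads without eas, 6 named members turned below 1 in the second step, with log2 ratios of -0.225 for aln-1, -0.213 for stk-39, -0.20 for NCU00129, -0.171 for NCU00559, -0.171 for NCU09712 and -0.075 for cys-9. That scale moves every second step by the same -0.71, of which -0.39 is already present on gene reads with eas kept. The 11 members with the larger first step became 69 on gene reads, 118 without eas and 63 on all reads, a recount chosen after seeing the data. Of the 166 ratios of the 83 named members (2 steps each), all stayed within their counting interval under TMM, the prior and the size factors from genes of at least 50 reads, while 83 on gene reads, 76 on all reads and 77 without eas left it with no change of direction. Within 2 genes of another member were 48 members, against 30 for the next gene. The planned comparisons of promoter motifs and of proteins were not run.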

Other observations

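Of the 9730 genes counted, 7021 had the minimum of 50 reads in Δ3βG. Among the rest, 191 further genes had at least 1.4 times the level in both steps. Another 38 genes, with 0 reads in Δ3βG, had reads in Δ3βGΔncu05853 and the same second step. With so few reads these ratios are less certain than those of the members. Of the 191, 9 (4.71%) are in a gene list. The share of other genes in a list was not counted, so 4.71% cannot be called high or low. Of the 9, the 6 in the lists not drawn up by symbol are named here after their values were seen. The xylose reductase gene xr (NCU08384) had 3257 reads in Δ3βGΔcdt2Δncu05853, 84 in Δ3βGΔncu05853 and 39 in Δ3βG, with steps of 1.96-fold (95% counting interval 1.33 to 2.95) and 49.1-fold (39.6 to 61.8). The invertase gene inv (NCU04265), which splits sucrose, had 681, 71 and 26 reads, with steps of 2.49-fold (1.57 to 4.07) and 12.2-fold (9.51 to 15.7). The first steps of gh45-1 (NCU05121), gh7-4 (NCU05104), gh61-2 (NCU07760) and gh3-7 (NCU09923) had intervals that included 1, with 2045, 15, 441 and 235 reads in Δ3βGΔcdt2Δncu05853, 39, 7, 7 and 50 in Δ3βGΔncu05853, and 24, 3, 2 and 31 in Δ3βG.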
